A study of Mus musculus with 14 samples.

Results

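The 10 genes described here encode the main proteins of the basement membrane of skeletal muscle: the α1 and α2 chains of collagen IV (Col4a1, Col4a2), 5 laminin chains (Lama2, Lama4, Lamb1, Lamb2, Lamc1), both nidogens (Nid1, Nid2) and perlecan (Hspg2). All 10 were found among the 54532 genes of the deposited tables, and all 10 passed the filter on low counts, which left 15458 genes. Coordinates are those of GRCm38 (mm10). Basement membranes are thin sheets of extracellular matrix that surround muscle fibres and lie beneath the endothelium of capillaries. Laminins, each a trimer of an α, a β and a γ chain, polymerize on the cell surface, and collagen IV forms a covalently crosslinked network that gives the sheet its strength. Nidogens and the heparan sulfate proteoglycan perlecan link the laminin and collagen IV networks, and loss of the laminin α2 chain causes a congenital muscular dystrophy.

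RNA-seq was performed on skeletal muscle of male FVB/N mice in which human c-Myc could be switched on in endothelial cells (EC-Myc OE) and of control littermates (CT), on a control diet (CTD) or a western diet (WD). There were 3 libraries of CT-CTD, 3 of CT-WD, 4 of OE-CTD and 4 of OE-WD, and total counts were between 21833839 and 28519159 per library. The question was how endothelial c-Myc and diet act on the transcriptome of muscle. Mice of all groups carried the Tet-O-Myc transgene, and EC-Myc OE mice also carried Cdh5-tTA, a transactivator under the promoter of the endothelial cadherin gene Cdh5, which CT mice lacked. All mice were raised on doxycycline diet (TD.01306), which keeps the transgene silent, and it was withdrawn at 4 to 6 weeks of age. The control diet was TD.08485 and the western diet TD.88137, given for 20 weeks according to the labels, whereas the study's results section gives a shorter time. The study names soleus and gastrocnemius, and the labels do not say which muscle a library came from. The transgene is human and was not measured in the mouse gene tables. The mouse Myc gene was at 7.02 ± 3.48 CPM in CT (mean ± SD, n = 6) and 6.00 ± 1.68 CPM in EC-Myc OE (n = 8), where CPM is counts scaled to a common library size after normalization between libraries by the trimmed mean of M-values (TMM).

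The group names carry a doubt that bears on every result. The labels place the larger groups in the EC-Myc OE genotype, whereas the legend in the study places them on western diet. The labels were kept. If the names CT-WD and OE-CTD were exchanged, each difference between genotypes given here would be a difference between diets, and each difference between diets would be one between genotypes. With the labels as they stand, edgeR called 0 of 15458 genes by diet in CT and 1 in EC-Myc OE. With the names exchanged it called 413 and 112 by diet, with 4 members in each, and 9 members by diet averaged over genotypes, where it called 1312 of all genes. Which naming holds was not settled here.

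The labels raise a further doubt about the number of animals. The sample descriptions of OE-CTD 1, 2 and 3 share a number, as do those of all 4 OE-WD libraries, while each CT library has its own. What the number marks is not stated. If it marked an animal, the EC-Myc OE libraries would not be independent and the p-values given here would be too small. As a measure of distance, chi-square divided by its degrees of freedom was 7.50 to 10.2 among OE-CTD 1, 2 and 3 and 35.6 to 41.2 between these and OE-CTD 4. In OE-WD it was 8.17 to 14.5 among libraries 1, 2 and 3 and 37.2 to 40.4 between these and OE-WD 4, although all 4 share the number. Pairs of CT libraries, each with a number of its own, lay between 16.1 and 25.8 in CT-CTD and between 28.7 and 48.1 in CT-WD, so that libraries 1, 2 and 3 of each EC-Myc OE group were closer than any pair of CT.

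The libraries OE-CTD 4 and OE-WD 4 stood apart from the other 12. Mitochondrial genes took 14.9% of counts in OE-CTD 4 and 14.5% in OE-WD 4, and between 9.66% and 12.8% in the others. The 10 most abundant genes took 29.2% and 29.5% in these libraries, and between 24.3% and 26.8% in the others. The summed CPM of 10 muscle fibre markers was also highest there (185657 in OE-CTD 4 and 190178 in OE-WD 4, against 132373 to 176493 elsewhere). Member counts are therefore also given without both libraries, a setting chosen after seeing the data.

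Levels of different genes were compared as FPKM, which is corrected for gene length. Over the 14 libraries, Lamb2 was the most abundant member (40.9 ± 8.22 FPKM, mean ± SD) and ranked first in each library. Col4a2 (28.1 ± 8.83) and Col4a1 (27.4 ± 8.59) followed and did not differ beyond their spread, with Col4a2 above Col4a1 in 9 of 14 libraries. Hspg2 was next (19.4 ± 4.45 FPKM), in the same rank in each library. Lamc1 (14.3 ± 2.65) and Nid1 (12.8 ± 3.51) changed places between libraries. Lamb1 (3.63 ± 1.14), Nid2 (3.06 ± 0.882) and Lama2 (2.88 ± 0.503) also exchanged ranks, and Lama4 was lowest (2.23 ± 0.600 FPKM) in all 14 libraries. The least abundant member still lay above 48.3% of the 15458 genes that passed the filter in mean FPKM. The smallest count behind any member's value here was 168, for Nid2.

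With the labels as they stand, most of the 10 members were called more highly expressed in EC-Myc OE than in CT muscle. Averaged over both diets, 9 of the 10 members rose at an adjusted p under 0.05 in edgeR's quasi-likelihood test, while 5.04% of all 15458 genes were called higher, 3.45% lower and 8.49% in either direction. The exception was Lamc1. The count was 10 in DESeq2 (12% of all genes) and without a filter on low counts (5.74%), 9 in limma on log2(FPKM + 0.1) (7.54%), 8 with the replicate number as a block (11%) and 7 in limma on log2(FPKM + 1) (7.12%). At an unadjusted p under 0.05 all 10 members were higher, against 13.1% of all genes higher, 10.8% lower and 23.9% in either direction. The median log2 fold change of the members was 0.61, and that of all genes tested was -0.0012. For 6 members, Col4a1, Col4a2, Lama4, Lamb1, Nid2 and Hspg2, the lowest of the 8 EC-Myc OE libraries lay above the highest of the 6 CT libraries, which held for 1.06% of all genes, and 0.77% lay apart in the other direction. Those 6 members kept an adjusted p under 0.05 whichever of the 14 libraries was left out. For EC-Myc OE libraries that share a number, this leaves the others in and so cannot test their independence. Bulk RNA was measured, so that more cells of a type and more RNA per cell cannot be told apart.

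Within each diet the test had fewer libraries. On control diet, 4 of 10 members were called higher in OE-CTD relative to CT-CTD (Col4a1, Col4a2, Lama4 and Lamb1), against 1.57% of all genes, with 1.11% lower and 2.67% in either direction. At an unadjusted p under 0.05 there were 9 of 10 higher, against 9.22%, with 6.7% lower and 15.9% in either direction. For 8 of 10 members all OE-CTD libraries were above all CT-CTD libraries, against 8.73% of all genes, and 6.75% were below. On western diet, 4 of 10 members were called higher in OE-WD relative to CT-WD (Col4a2, Lama4, Lamb1 and Nid2), against 0.33% of all genes, with 0.395% lower and 0.725% in either direction. At an unadjusted p under 0.05 there were 8 of 10 higher, against 8.44%, with 8.42% lower and 16.9% in either direction. For 8 of 10 members the OE-WD libraries did not overlap with CT-WD, against 6.06% higher and 5.54% lower. A p that misses the threshold does not show that a member did not differ. The count of 4 on western diet depended on single libraries. It was 0 without CT-WD 2, CT-WD 3, OE-WD 2, OE-WD 3 or OE-WD 4, where 0.0818%, 0.0441%, 0.026%, 0.039% and 0.0974% of all genes were called in either direction. It was 1 without OE-CTD 2 (0.325% of all genes) and 10 without CT-WD 1 (9.47%). The calls over all genes thus moved along with those of the members. The count was also 0 without both OE-CTD 4 and OE-WD 4 (0.0326% of all genes), 0 in limma on log2 FPKM (0.311% with a pseudocount of 1 and 0.246% with 0.1), 0 with only the 2 groups compared (0.0269%), 0 with the replicate number as a block (0%), and 8 in DESeq2 (3.73%). On control diet the count was 2 without CT-CTD 3 (0.485% of all genes), 5 without both OE-CTD 4 and OE-WD 4 (3.61%), and 7 in DESeq2 (5.27%), with only the 2 groups compared (4.04%) and with the block (5.26%). Averaged over diets the count was 9 without both libraries (10.8% of all genes). Every one of the 30 log2 fold changes between genotypes was above 0 in each setting computed with the labels as they stand.

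**Figure D1:**
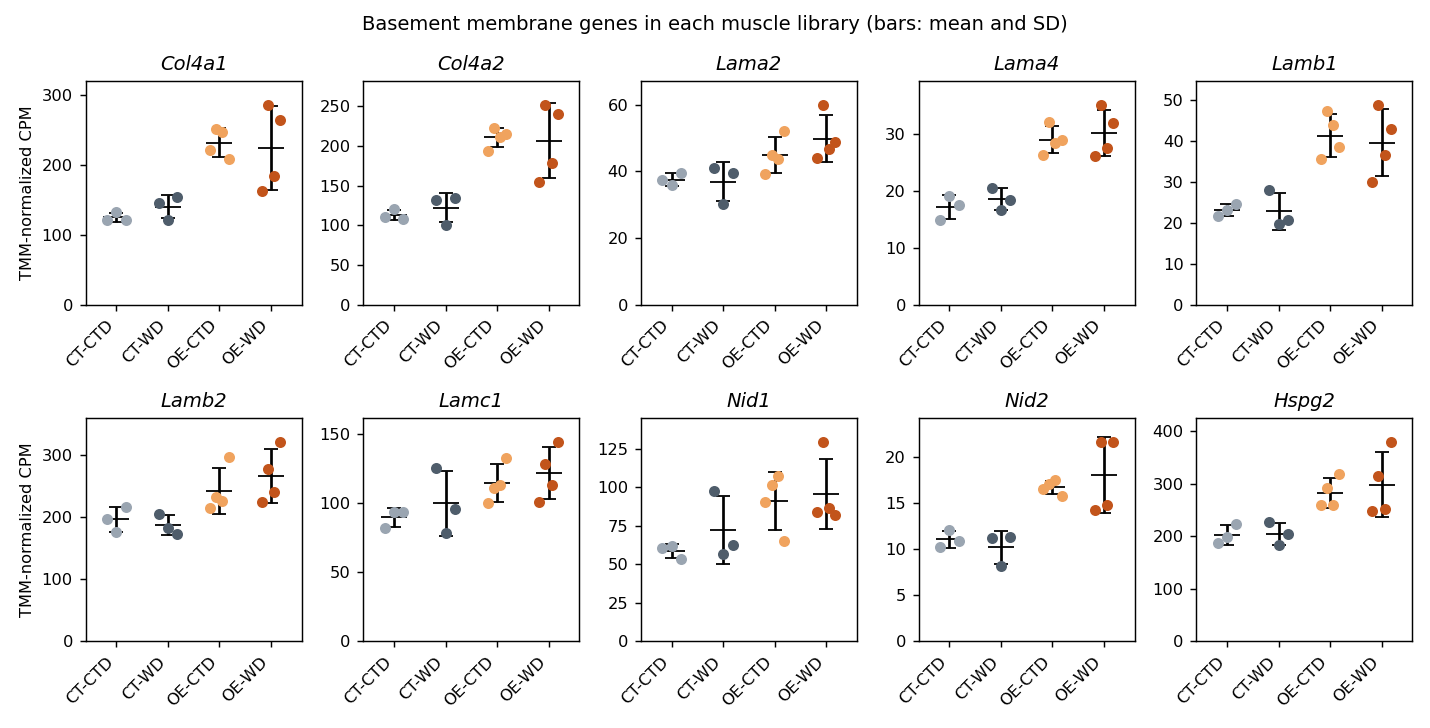
TMM-normalized CPM (y axes, from 0) of the 10 members in the 14 libraries, by group (x axes). Points are libraries, and bars give the mean and SD of each group. The Col4a1 libraries of EC-Myc OE lie between 163 and 285, all above the CT libraries at 121 to 154.

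Collagen IV α1 and α2 chains assemble into the trimer that is found in nearly all basement membranes. Col4a1 (ENSMUSG00000031502, chr8:11198423-11312826, minus strand) was at 121, 133 and 121 CPM in the 3 CT-CTD libraries and at 145, 121 and 154 CPM in CT-WD. It reached 221, 251, 246 and 208 CPM for OE-CTD, and 163, 285, 183 and 264 CPM in OE-WD. No EC-Myc OE library fell into the range of CT, and OE-WD was split into libraries 1 and 3 at lower and libraries 2 and 4 at higher levels. The log2 fold change was 0.89 (SE 0.16, adjusted p = 0.011, edgeR) on control diet and 0.68 (SE 0.16, adjusted p = 0.0635) on western diet. On control diet the adjusted p was 0.070 without CT-CTD 3. On western diet it was 0.033 without CT-WD 1 and 0.026 without OE-WD 1. Averaged over diets it was 0.78 (SE 0.12, adjusted p = 0.0013).

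Col4a2 (ENSMUSG00000031503, chr8:11312805-11449287, plus strand) had 111, 120.5 and 108 CPM in CT-CTD and 131, 101 and 134 CPM in CT-WD. In OE-CTD it had 194, 223, 211 and 216 CPM, and in OE-WD 155, 252, 179 and 241 CPM. The genotypes did not overlap, and the same OE-WD libraries were high as for Col4a1. Col4a2 rose by 0.90 (SE 0.15, adjusted p = 0.0071, edgeR) on control diet and by 0.76 (SE 0.15, adjusted p = 0.032) on western diet, on the log2 scale. For the log2 fold change of Col4a2, OE-WD vs CT-WD, the call was lost without CT-WD 2 (adjusted p = 0.144), CT-WD 3 (0.119), OE-CTD 2 (0.0516), OE-WD 2 (0.106), OE-WD 3 (0.0691) or OE-WD 4 (0.0883). The ratio of Col4a2 to Col4a1 in FPKM was 1.002 ± 0.036 in CT (n = 6) and 1.04 ± 0.068 in EC-Myc OE (n = 8), and between 0.938 and 1.17 in single libraries. The chains were thus at similar levels in both genotypes.

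Among the laminin genes, Lama4 and Lamb1 had larger fold changes between genotypes than Lama2, Lamb2 and Lamc1. Lama4 (ENSMUSG00000019846, chr10:38965515-39110188, plus strand) encodes the α4 chain, which is typical of endothelial basement membranes. It was at 14.8, 19.2 and 17.6 CPM in CT-CTD, 20.6, 16.7 and 18.4 CPM in CT-WD, 26.3, 32.1, 28.5 and 29.04 CPM in OE-CTD, and 26.2, 35.1, 27.6 and 31.9 CPM in OE-WD. The lowest EC-Myc OE library was above the highest CT library. Lama4 rose by 0.76 (SE 0.12, adjusted p = 0.0063, edgeR) on control diet and by 0.70 (SE 0.12, adjusted p = 0.028) on western diet, on the log2 scale. For the log2 fold change of Lama4, OE-WD vs CT-WD, the call was lost without CT-WD 2 (adjusted p = 0.0951), CT-WD 3 (0.119), OE-WD 2 (0.0883), OE-WD 3 (0.0576) or OE-WD 4 (0.0683). Lama2 (ENSMUSG00000019899, chr10:26980036-27619758, minus strand) encodes the α2 chain of the muscle fibre basement membrane. It lay between 30.2 and 40.9 CPM in CT (median 38.4) and between 39.2 and 59.9 CPM in EC-Myc OE (median 45.7), and the genotypes overlapped. Averaged over diets, Lama2 rose by 0.35 on the log2 scale (SE 0.089, adjusted p = 0.027, edgeR). The call for the log2 fold change of Lama2, genotype, mean over diets, was lost without CT-CTD 2 (adjusted p = 0.0679), CT-CTD 3 (0.0503), CT-WD 2 (0.0751), OE-CTD 2 (0.0506) or OE-WD 2 (0.0520). It was also lost with the replicate number as a block (adjusted p = 0.0628) and in limma on log2(FPKM + 1) (0.0537). Within each diet Lama2 had adjusted p-values of 0.33 (control) and 0.11 (western), the latter 0.037 without CT-WD 1. The ratio of Lama4 to Lama2 in FPKM was 0.655 ± 0.079 in CT and 0.851 ± 0.072 in EC-Myc OE. The ranges of 0.539 to 0.749 and 0.754 to 0.971 did not overlap, but nearly met at CT-WD 2 and OE-CTD 4. How often ratios of other gene pairs separate the genotypes was not computed. No test was made of the ratio.

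Lamb1 (ENSMUSG00000002900, chr12:31265234-31329644, plus strand) encodes the β1 chain, found in the laminins of blood vessels and of the muscle fibre surface. It was at 21.7, 23.1 and 24.6 CPM in CT-CTD and at 27.9, 19.7 and 20.7 CPM in CT-WD. It was at 35.5, 47.3, 43.9 and 38.5 CPM in OE-CTD and at 30.0, 48.8, 36.5 and 43.0 CPM in OE-WD. All EC-Myc OE libraries exceeded all CT libraries, with the smallest gap between OE-WD 1 and CT-WD 1. Lamb1 rose by 0.84 (SE 0.16, adjusted p = 0.014, edgeR) on control diet and by 0.80 (SE 0.16, adjusted p = 0.035) on western diet, on the log2 scale. The call for the log2 fold change of Lamb1, OE-CTD vs CT-CTD, was lost without CT-CTD 2 (adjusted p = 0.0648), CT-CTD 3 (0.0580) or OE-CTD 2 (0.0505). That for the log2 fold change of Lamb1, OE-WD vs CT-WD, was lost without CT-WD 2 (0.157), CT-WD 3 (0.173), OE-CTD 2 (0.0516), OE-CTD 3 (0.0514), OE-WD 2 (0.115), OE-WD 3 (0.0769) or OE-WD 4 (0.0883). Lamb2 (ENSMUSG00000052911, chr9:108479736-108490530, plus strand) encodes the β2 chain, which is enriched at the neuromuscular junction and is also present in vessels. Its CT libraries lay between 173 and 217 CPM (median 189.9) and its EC-Myc OE libraries between 215 and 322 CPM (median 237), the highest being OE-CTD 4 and OE-WD 4. The lowest EC-Myc OE library lay just below the highest CT library. Averaged over diets, Lamb2 rose by 0.40 on the log2 scale (SE 0.095, adjusted p = 0.017, edgeR), and the adjusted p was 0.052 without CT-CTD 2. On western diet the adjusted p was 0.090 and was 0.030 without CT-WD 1. The ratio of Lamb1 to Lamb2 in FPKM was 0.073 ± 0.0070 in CT and 0.099 ± 0.017 in EC-Myc OE, and the ranges overlapped.

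Lamc1 (ENSMUSG00000026478, chr1:153218922-153332786, minus strand) encodes the γ1 chain shared by most laminins, and it was the member with the smallest difference between genotypes averaged over diets. It lay between 78.3 and 125 CPM in CT (median 93.6) and between 100.4 and 145 CPM in EC-Myc OE (median 113). CT-WD 1, at 125 CPM, was above most EC-Myc OE libraries. The log2 fold change averaged over diets was 0.32 (SE 0.11, 95% interval 0.094 to 0.54, adjusted p = 0.076, edgeR). Without CT-WD 1 it was 0.42 (adjusted p = 0.0087), and without OE-WD 1 it was 0.36 (adjusted p = 0.047). The adjusted p was 0.0402 in DESeq2 and 0.0202 without a filter on low counts. These are fits of the log2 fold change of Lamc1, genotype, mean over diets. On western diet the adjusted p was 0.35 and was 0.048 without CT-WD 1.

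Nid1 and Nid2 encode the nidogens, which bind the laminin γ1 chain and collagen IV. Nid1 (ENSMUSG00000005397, chr13:13437551-13512269, plus strand) was at 60.4, 62.0 and 53.6 CPM in CT-CTD and at 97.8, 56.8 and 62.6 CPM in CT-WD. It was at 90.3, 102, 107 and 65.4 CPM in OE-CTD and at 83.9, 129.8, 86.8 and 82.1 CPM in OE-WD. CT-WD 1 lay within the range of EC-Myc OE, and OE-CTD 4 was close to the other CT libraries. Averaged over diets, Nid1 rose by 0.52 on the log2 scale (SE 0.14, adjusted p = 0.038, edgeR). This call was kept in 4 of the 14 fits with a library left out, those without CT-WD 1, OE-CTD 4, OE-WD 1 or OE-WD 4, with an adjusted p of 0.0039 at the lowest. For the log2 fold change of Nid1, genotype, mean over diets, it was lost without CT-CTD 1 (adjusted p = 0.0534), CT-CTD 2 (0.0666), CT-CTD 3 (0.0985), CT-WD 2 (0.105), CT-WD 3 (0.0941), OE-CTD 1 (0.0592), OE-CTD 2 (0.0787), OE-CTD 3 (0.0771), OE-WD 2 (0.0755) or OE-WD 3 (0.0524). In limma on log2(FPKM + 1) the adjusted p was 0.0508. On western diet the adjusted p was 0.34 and was 0.045 without CT-WD 1. Nid2 (ENSMUSG00000021806, chr14:19751265-19811787, plus strand) did not overlap between genotypes, at 8.12 to 12.0 CPM in CT (median 11.01) and 14.2 to 21.6 CPM in EC-Myc OE (median 16.7). It rose by 0.82 (SE 0.16, adjusted p = 0.0325, edgeR) on western diet, and its log2 fold change on control diet was 0.59 (SE 0.16, adjusted p = 0.067), the latter p being 0.046 without CT-WD 2. For the log2 fold change of Nid2, OE-WD vs CT-WD, the call was lost without CT-WD 2 (adjusted p = 0.142), CT-WD 3 (0.119), OE-CTD 1 (0.0532), OE-CTD 2 (0.0519), OE-WD 2 (0.111), OE-WD 3 (0.0618) or OE-WD 4 (0.0883). Nid2 overlaps 437 bases of Rtraf on the opposite strand, a gene with a mean of 66.3 CPM. The strand setting of the counting was not given in the sources used here, so reads in the shared stretch cannot be told apart and the level of Nid2 is uncertain. Rtraf itself had a log2 fold change of -0.17 (SE 0.056, adjusted p = 0.067, edgeR) averaged over diets, opposite in sign to Nid2.

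Hspg2 (ENSMUSG00000028763, chr4:137468769-137570630, plus strand) encodes perlecan, whose C-terminal fragment is endorepellin. It was at 187, 198 and 225 CPM in CT-CTD and at 227, 184 and 205 CPM in CT-WD. It was at 260.2, 292, 260.3 and 318 CPM in OE-CTD and at 248, 314, 253 and 380.5 CPM in OE-WD. The genotypes did not overlap, and OE-CTD 4 and OE-WD 4 were the highest of their groups. The log2 fold change was 0.48 (SE 0.14, adjusted p = 0.088, edgeR) on control diet and 0.54 (SE 0.14, adjusted p = 0.080) on western diet. The adjusted p was 0.040 on control diet without OE-WD 4, and 0.025 on western diet without CT-WD 1. Averaged over diets, Hspg2 rose by 0.51 (SE 0.099, adjusted p = 0.0064).

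**Figure D2:**
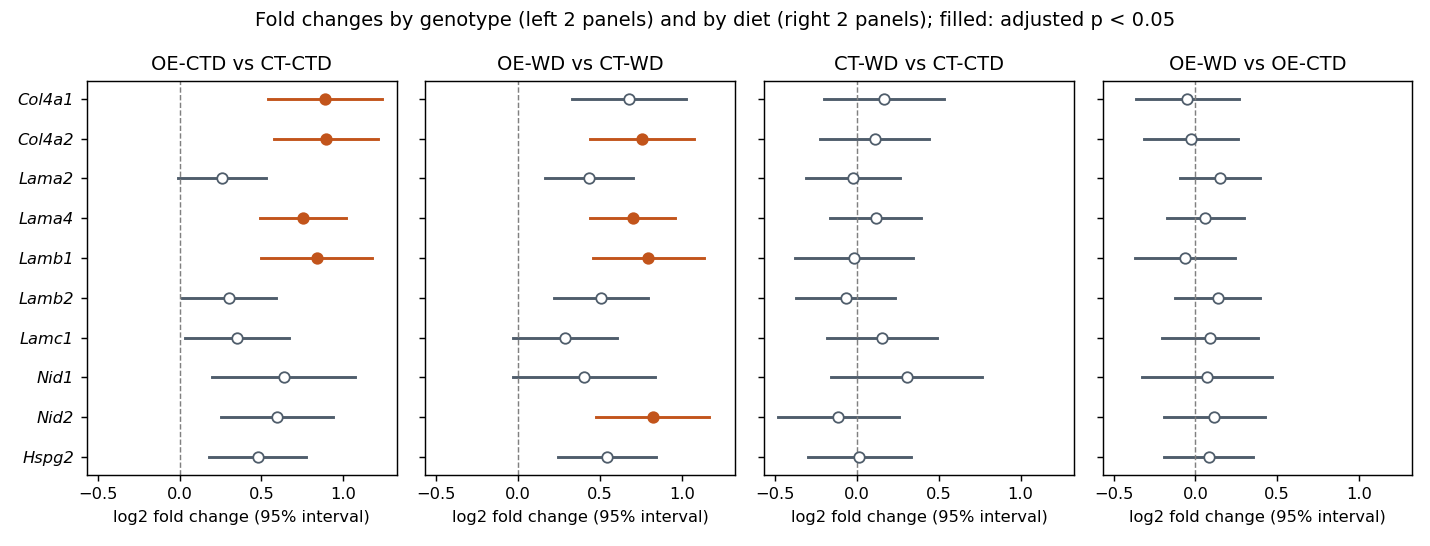
Log2 fold changes (x axes) of the 10 members (y axis) in 4 comparisons, with points for the edgeR estimate and lines for its 95% interval. Filled points have an adjusted p under 0.05. The 2 genotype comparisons lie between 0.26 and 0.90, and the 2 diet comparisons between -0.11 and 0.30 with every interval spanning 0.

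With the labels kept, no change of a member on western diet was called within either genotype. In CT-WD relative to CT-CTD, 0 of 10 were called by edgeR and by DESeq2, and so were 0 of all 15458 genes by edgeR and 0.227% by DESeq2. At an unadjusted p under 0.05 there were 0 of 10, while 4.19% of all genes were higher and 3.09% lower at that threshold, 7.28% in all. Without overlap between the groups, 0 members were higher or lower, against 4.47% and 5.16% of all genes. The log2 fold changes ran from -0.11 for Nid2 to 0.30 for Nid1, with a median of 0.061, and the value for Nid1 was 0.025 without CT-WD 1. In OE-WD relative to OE-CTD, edgeR and DESeq2 called 0 of 10, and 0 of 10 had an unadjusted p under 0.05, against 1.93% of all genes higher and 2.27% lower, 4.2% in all. At the adjusted threshold each called 0.00647% of all genes, and without overlap 1.84% were higher and 2.23% lower, with 0 members among them. These log2 fold changes ran from -0.062 for Lamb1 to 0.15 for Lama2, with a median of 0.074. Averaged over genotypes, edgeR and DESeq2 called 0 of 10 and 0 of 10 had an unadjusted p under 0.05, against 3.62% of all genes higher, 2.34% lower and 5.96% in all. At the adjusted threshold 0.00647% of all genes were called by edgeR and 0.142% by DESeq2, and without overlap 0.0453% were higher and 0.0129% lower, again with 0 members. The 95% intervals of this average all included 0 and reached from -0.28 at the lowest bound (Lamb1) to 0.49 at the highest (Nid1). Those within a genotype were wider and also included 0, from -0.48 (Nid2) to 0.77 (Nid1) in CT and from -0.37 (Lamb1) to 0.47 (Nid1) in EC-Myc OE. A p that misses the threshold does not show that diet had no effect. The diet and genotype comparisons share libraries.

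The genotype difference was not called different between diets. The diet by genotype interaction had 0 of 10 members called by edgeR and by DESeq2, where 0 of all 15458 genes were called by edgeR and 0.0194% by DESeq2. At an unadjusted p under 0.05 there were 0 of 10, against 2.57% of all genes above and 3.34% below 0 at that threshold, 5.92% in all. Interaction values on the log2 scale ran from -0.24 for Nid1 (95% interval -0.85 to 0.37) to 0.23 for Nid2 (95% interval -0.25 to 0.71). Calls made on 1 diet only, such as Nid2 on western diet and Col4a1 on control diet, are therefore not shown to differ between diets.

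Members varied together from library to library within a genotype. Over the 8 EC-Myc OE libraries, 42 of 45 pairs of members had a positive Pearson correlation of log2 CPM (median r = 0.64), against 50.04% of all pairs among 12736 other genes (median r = 0.00054). Of the members, 12 of 45 had an exact permutation p under 0.05 after Benjamini-Hochberg adjustment. The lowest r among these 12 was 0.82, a value reached by 1.85% of pairs of other genes. The 12 pairs fell into sets that shared no member. One held Col4a1, Col4a2, Lama4, Lamb1 and Nid2, and the other Lamb2, Lamc1 and Hspg2. For Col4a1 and Col4a2, r was 0.95 (exact permutation p = 0.0005, adjusted p = 0.011) and Spearman's rho 0.93 (exact permutation p = 0.0022), and r was 0.80 without the 2 libraries farthest from the median. For Lamb2 and Lamc1, r was 0.97 (exact permutation p = 0.00017, adjusted p = 0.0078) and rho 0.93 (exact permutation p = 0.0022), with r = 0.92 without the 2 farthest libraries. Lamb2, Lamc1 and Hspg2 were highest in OE-CTD 4 and OE-WD 4, the libraries with the highest mitochondrial share. Without both libraries, a setting chosen after seeing the data, 45 of 45 pairs were positive, against 49.99% of pairs of other genes. The median r was 0.85, against -0.00019 for pairs of other genes. Then 26 of 45 pairs reached an r of 0.82, as did 2.58% of pairs of other genes. The sets above describe all 8 EC-Myc OE libraries, and whether they hold without both was not tested. Over the 6 CT libraries the median r of the 45 pairs was also positive (0.61, against -0.00040 for other genes). An r of 0.82 was reached by 6 of 45 pairs, and by 3.19% of pairs of other genes. At an unadjusted exact permutation p under 0.05 there were 6 of 45, and 0 of 45 passed the adjusted threshold. With 6 libraries the smallest possible exact p is too large for a single pair to pass that threshold alone. The 0 can therefore not be set against the 12 pairs in EC-Myc OE. For Col4a1 and Col4a2 in CT, r was 0.95 (exact permutation p = 0.0056, adjusted p = 0.25), rho was 0.83 (exact permutation p = 0.058), and r was 0.82 without the 2 farthest libraries.

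Outside the 10 members, the genes with the most similar profile were named by their Pearson correlation with the mean of the members' scaled log2 CPM, among 12736 genes and over the 14 libraries, a measure that includes the genotype difference and is given as a description. They were Nrp2, a co-receptor of semaphorins and vascular endothelial growth factors, Col6a2, a chain of collagen VI, Msn, which links the cytoskeleton to the membrane, Tnxb, a tenascin of connective tissue, and Kctd17. Their correlations with the member mean were between 0.80 and 0.92 within the 6 CT libraries and between 0.81 and 0.94 within the 8 EC-Myc OE libraries. The genes most like Col4a1 over the 14 libraries were Col4a2, Col6a2 and Col15a1. Their correlations with it were 0.95, 0.94 and 0.95 within EC-Myc OE, but 0.95, 0.66 and 0.48 within CT.

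Col4a1 and Col4a2 lie head to head on chromosome 8, at chr8:11198423-11312826 on the minus strand and chr8:11312805-11449287 on the plus strand (GRCm38), and their annotated ends overlap by 22 bases. Their start regions are printed because both genes moved together. Promoter windows of 250 bases before to 50 bases after the start of a gene were taken from RefSeq (GRCm38.p6) and matched 7 of the 10 members by symbol. Lama4, Lamc1 and Nid2 were not matched in the set of promoters used. The window of Col4a1 is chr8:11312777-11313076 on the minus strand and that of Col4a2 is chr8:11312555-11312854 on the plus strand, so that 78 bases are shared, read in opposite directions. Sequences run 5′ to 3′ on the strand of the gene, and capitals mark each GC box (GGGCGG) and CCAAT box (CCAAT), searched on both strands, with no overlap between the 2 motifs.
Col4a1: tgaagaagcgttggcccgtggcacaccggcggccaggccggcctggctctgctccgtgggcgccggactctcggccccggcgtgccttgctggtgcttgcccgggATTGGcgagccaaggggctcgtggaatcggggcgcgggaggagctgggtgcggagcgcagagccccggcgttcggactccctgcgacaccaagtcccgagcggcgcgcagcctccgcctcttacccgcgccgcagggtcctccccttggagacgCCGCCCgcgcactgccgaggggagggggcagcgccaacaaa
Col4a2: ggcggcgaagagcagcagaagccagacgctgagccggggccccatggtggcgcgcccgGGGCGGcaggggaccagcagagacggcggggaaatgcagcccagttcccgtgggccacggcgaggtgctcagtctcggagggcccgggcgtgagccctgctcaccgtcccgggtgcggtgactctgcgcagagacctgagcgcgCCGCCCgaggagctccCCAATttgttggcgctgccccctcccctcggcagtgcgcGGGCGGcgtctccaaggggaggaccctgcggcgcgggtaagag
The Col4a1 window held 1 GC box and 1 CCAAT box, and the Col4a2 window 3 GC boxes and 1 CCAAT box. The GC box of Col4a1 lies in the stretch shared by both windows. It is the same site as 1 of the 3 of Col4a2 and is counted in both. Of the 7 member windows, 6 held a GC box and 4 a CCAAT box, while 35.7% and 37.4% of 32851 windows of all genes did. The E box CACGTG, the letters that Myc with its partner Max is known to bind, was in 0 of 7 windows and in 7.15% of all windows, and the TATA box TATAAA was in 0 of 7 and in 13.6%. These counts describe letters in short windows and say nothing of binding.

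Other genes of the matrix were compared as lists, by counts and medians. Between genotypes averaged over diets, edgeR called 8.49% of all genes at an adjusted p under 0.05, and 23.9% had an unadjusted p under 0.05. None of the 9 tested chains of collagen IV and laminin outside the members was called in this comparison, by edgeR at an adjusted p under 0.05. An unadjusted p under 0.05 was found for 1 of 9. In so short a list, 0 of 9 is near the share over all genes. Their most abundant gene, Lama5, encodes the laminin α5 chain of mature vessels and had a log2 fold change of -0.025 (SE 0.076, adjusted p = 0.88). Lamc3 encodes the laminin γ3 chain and had a log2 fold change of 0.73 (SE 0.28, adjusted p = 0.13). The summed CPM of the chains was 70.2 ± 5.61 in CT and 71.5 ± 5.99 in EC-Myc OE, against 895 ± 79.99 and 1328 ± 174 for the members. Lama5 made up 72.0% of the sum of the chains, which therefore mostly follows this gene. The median log2 fold change of the 9 tested chains was 0.23, with 6 of 9 above 0.

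Among 18 other basement membrane components, 7 rose averaged over diets. Col15a1 had the largest log2 fold change of them (1.24, adjusted p = 0.00082, edgeR), followed by Col18a1 (0.88, adjusted p = 0.0014), and both encode collagens of vascular basement membranes that release antiangiogenic fragments. Ntn4, a netrin that binds laminin, rose by 0.67 (adjusted p = 0.0012) and Sparc, which binds collagen IV, by 0.65 (adjusted p = 0.012). The others were Fbln2 (0.49), Smoc2 (0.35) and Agrn (0.23), which encodes agrin, an organizer of the neuromuscular junction.

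Of 15 tested genes that modify, fold, export or crosslink collagen, 5 rose and 1 fell averaged over diets. The collagen chaperone gene Serpinh1 rose by 0.66 (adjusted p = 0.0090, edgeR), the lysyl oxidase gene Loxl2 by 1.09 (adjusted p = 0.0035), and Pxdn, whose product forms the sulfilimine crosslinks of collagen IV, by 0.40 (adjusted p = 0.035). Fkbp10 and Crtap, which act on procollagen in the endoplasmic reticulum, rose by 0.62 and 0.54. Mia3, which is needed to export procollagen, fell by 0.21 (adjusted p = 0.012). P4hb, the most abundant gene of the list, had a log2 fold change of -0.045 (adjusted p = 0.69).

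Receptor genes rose in 5 of 10 cases, namely Itga1 (0.29), Itga2 (1.14), Itga6 (0.51), Bcam (0.32) and Ddr1 (0.35), with adjusted p-values between 0.0066 and 0.046 (edgeR). Itga1 and Itga2 encode integrin subunits for collagen, Itga6 one for laminin, Bcam a receptor for the laminin α5 chain, and Ddr1 a receptor kinase for collagen. Itgb1, the most abundant of them in FPKM, had a value of 0.14 (adjusted p = 0.21). Of 10 proteases and inhibitors, Mmp2 (1.02), Mmp14 (0.81), Adamts1 (0.67), Bmp1 (0.50) and Timp2 (0.66) rose and Timp4 fell by 0.99 (adjusted p = 0.00037, edgeR). Mmp2 and Mmp14 encode gelatinase A and its membrane-bound activator, and Timp2 and Timp4 encode metalloproteinase inhibitors.

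Interstitial collagens, which form the fibrils and microfibrils between fibres, rose in 9 of 9 cases averaged over diets, with a median log2 fold change of 0.99. These were Col1a1, Col1a2, Col3a1, Col5a1, Col5a2, Col5a3, Col6a1, Col6a2 and Col6a3. The values ran from 0.56 for Col5a3 to 1.53 for Col1a1, with adjusted p-values between 0.0023 and 0.039 (edgeR). Their summed CPM differed between libraries more than that of the members. In CT it was between 376 and 512 in 5 libraries and 1253 in CT-WD 1, and in EC-Myc OE it was between 839 and 2194, so that CT-WD 1 lay inside the range of EC-Myc OE. The summed CPM of the members was 1.81 ± 0.551 times that of the interstitial collagens in CT and 1.10 ± 0.265 times in EC-Myc OE. A rise was thus also measured in matrix genes outside the basement membrane. On control diet edgeR called 4 of 9 higher (1.57% of all genes), with 9 of 9 at an unadjusted p under 0.05 (9.22%). On western diet it called 0 of 9 (0.33% of all genes higher), with 7 of 9 higher at an unadjusted p under 0.05 (8.44%). In so short a list, 0 of 9 is near the share over all genes and does not show a difference between diets.

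**Figure D3:**
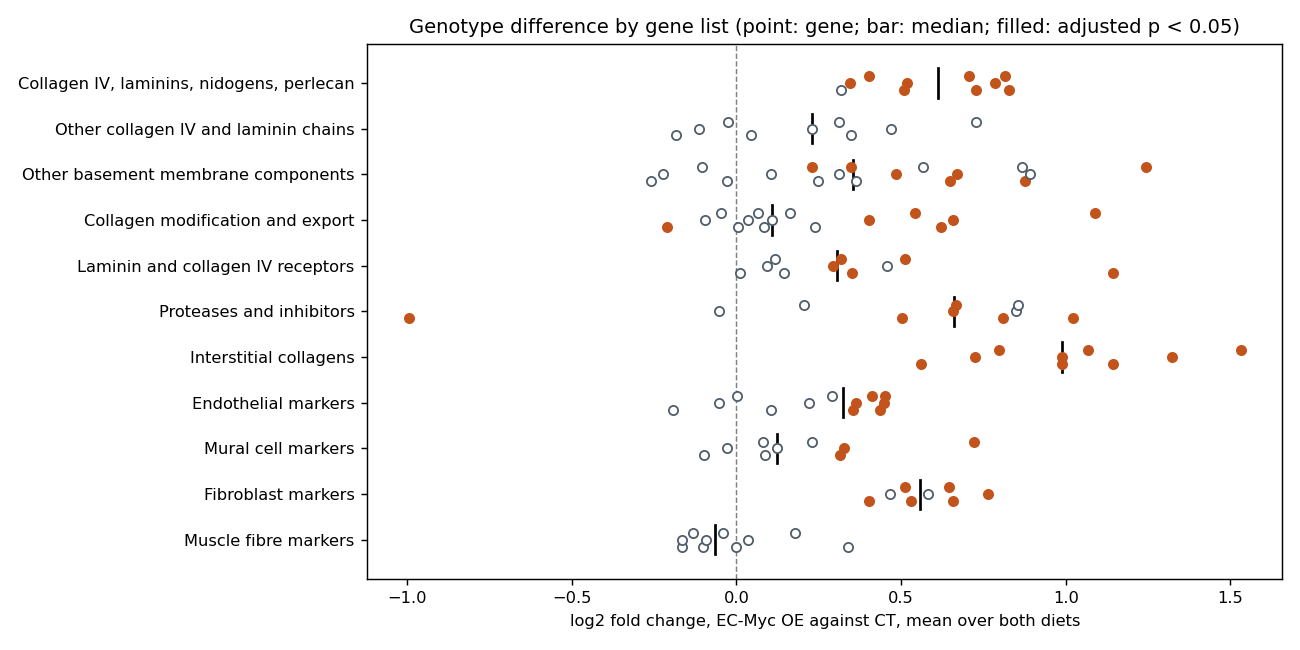
Log2 fold change of EC-Myc OE against CT, as the mean over both diets (x axis), for the genes of 11 lists (y axis). Points are genes, filled where the adjusted p of edgeR was under 0.05, and black bars are list medians, such as 0.61 for the 10 members and 0.99 for the interstitial collagens.

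Some markers of endothelial cells, fibroblasts, mural cells and tendon were also called between genotypes. Of 12 endothelial markers, 6 rose averaged over diets (median 0.32, from 0.35 for Emcn to 0.45 for Tek among those called). Of the 12, 10 were above 0 and 1 had an unadjusted p under 0.05 in the other direction, Flt1, with a log2 fold change of -0.19 (adjusted p = 0.17, edgeR). Their summed CPM was 479.7, 468 and 504 in CT-CTD, 576, 508 and 540.04 in CT-WD, 586, 593, 566 and 537 in OE-CTD. In OE-WD it was 604, 603, 617 and 605. The most abundant was Cdh5 (16.7% of the sum) and no marker was at 0 in all libraries. Egfl7 stands both in this list and among the other basement membrane components. The summed CPM of the members was 1.75 ± 0.10 times that of the endothelial markers in CT and 2.26 ± 0.31 times in EC-Myc OE, with overlapping ranges of 1.57 to 1.87 and 1.80 to 2.61.

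Of 8 fibroblast markers, 6 rose averaged over diets (median 0.56). Their summed CPM was 918, 731 and 635 in CT-CTD, 1501, 788 and 778 in CT-WD, 1294, 1568, 1497 and 846 in OE-CTD. In OE-WD it was 1242, 2048, 1424 and 901. The most abundant was Gsn, with 63.3% of the sum, and no marker was at 0 in all libraries. OE-CTD 4 and OE-WD 4 were the lowest EC-Myc OE libraries in this sum, and CT-WD 1 the highest of CT. The summed CPM of the members was 1.07 ± 0.257 times that of the fibroblast markers in CT and 1.06 ± 0.390 times in EC-Myc OE. Of 9 mural cell markers, 3 rose (median 0.12), with summed CPM between 659 and 746 in CT and between 701 and 826 in EC-Myc OE, the most abundant being Abcc9 (33.3%). The summed CPM of the members was 1.25 ± 0.094 times that of the mural cell markers in CT and 1.74 ± 0.187 times in EC-Myc OE. The ranges, 1.14 to 1.42 and 1.44 to 1.97, did not overlap. Of 6 tendon markers, 2 rose (median 1.32), with summed CPM between 84.1 and 478 in CT and between 301 and 845 in EC-Myc OE, the most abundant being Fmod (52.8%). The part of these cell types in the result was not tested.

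The markers of muscle fibres showed that the samples were muscle, with a summed CPM between 132373 and 190178 over all libraries, and 0 of 10 were called between genotypes averaged over diets, by edgeR, the only test run on these lists, with 1 of 10 at an unadjusted p under 0.05. Schwann cell markers had 0 of 7 called at either threshold (median 0.16), macrophage markers 0 of 8 called and 5 of 8 at an unadjusted p (median 0.54), and epidermal markers 0 of 6 called and 1 of 6 at an unadjusted p (median 0.47). Of 6 adipocyte markers, Lep rose and Plin4 fell. Of 5 satellite cell markers, Chodl rose, and of 8 slow fibre markers, Atp2a2 rose. Fast fibre markers had 0 of 8 called at either threshold.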

How the data were processed

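RNA of skeletal muscle was purified by the authors with poly-T beads and sequenced in 14 libraries, which were grouped by their labels. The authors deposited counts, the reads assigned to each gene without normalization. The authors also deposited FPKM, in which counts are scaled by gene length and a library total. HISAT2 2.0.5, featureCounts 1.5.0-p3 and mm10 are named in the submitters' processing notes, and the strand setting is not given in the sources used here. Gene positions were the same as in GENCODE M21 (GRCm38) for 98.3% of 54495 shared identifiers and for all 10 members.

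The quasi-likelihood test of edgeR 4.0.16 (R 4.3.3) was run on counts after TMM normalization and the filterByExpr filter, in a model of 4 group means that held all 14 libraries. Benjamini-Hochberg adjustment covered the 15458 genes of each comparison. The 4 pairwise comparisons, the means over diets or genotypes and the interaction were tested. Standard errors were derived from the F statistic, and intervals are 95%. The biological coefficient of variation was 17.0%, and precision is limited by the number of libraries. Scripts were tested on simulated data. Log2 CPM used a prior count of 2. Alternatives were DESeq2 1.42.0, limma 3.58.1 on log2(FPKM + 1) and log2(FPKM + 0.1), size factors by the median of ratios, no filter, only the 2 groups compared, a replicate block, each library left out in turn, and an exchange of the group names CT-WD and OE-CTD.

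Members and lists were chosen with earlier results of these data known. Named from the other matrix lists were the gene of highest mean FPKM, each gene with an adjusted p under 0.05 in any comparison and genes among the 2 of smallest p in the pairwise comparisons. Cell type markers named were those called in lists with few calls, or at the ends of a range, chosen after their values were seen. Libraries were named by group and replicate number of the labels. The labels do not say that each library came from a separate animal, and descriptions of EC-Myc OE libraries share numbers, so p-values measure the spread between these libraries, which may be technical. No libraries of a group agreed within sampling noise (chi-square per degree of freedom between 7.50 and 48.1). Replicate numbers were checked as pairs by correlating, across genes, the deviations of same-numbered libraries from the mean of their group. Between CT-WD and CT-CTD they were 0.385, 0.123 and 0.203, all over 0.1, although CT-CTD 2 correlated best with CT-WD 3. These numbers were treated as possible pairs, from this check alone. The main model of group means does not use them, and pairs enter only in the alternative with a replicate block.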

Additional observations from a re-analysis of the deposited data

Results flagged for a closer look

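In 30 groups of 4 libraries (CPM of each member, ratios of paired genes and the summed CPM of the members), 3 values in OE-WD 2 and OE-WD 4 lay far from the rest of their group by Dixon's test, where chance alone gives about 1 in 20 groups. Nid1 was at 129.8 CPM in OE-WD 2, while the other OE-WD libraries lay between 82.1 and 86.8 CPM. OE-WD 2 also had the highest summed CPM of interstitial collagens (2194) and of fibroblast markers (2048) of all libraries, and the part of these in the value was not tested. The ratio of Lama4 to Lama2 in FPKM was 0.884 in OE-WD 4 and between 0.795 and 0.810 in the other OE-WD libraries. The ratio of Nid2 to Nid1 in FPKM was 0.353 in OE-WD 4 and between 0.223 and 0.228 in the other OE-WD libraries. OE-CTD 4 had the highest ratio of Nid2 to Nid1 of its group as well (0.324, against 0.218 to 0.244).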

How the results depend on the processing

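The 30 log2 fold changes between genotypes kept their sign in every setting fitted with the labels as they stand, between 0.14 and 0.97 with single libraries left out and between 0.18 and 0.94 in the other settings. Of 420 values with 1 library left out, 45 lost and 11 gained an adjusted p under 0.05.

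Members called in OE-CTD relative to CT-CTD were 4, and 7 in DESeq2 (5.27% of all genes called), without a filter (2.72%), with only the 2 groups compared (4.04%) and with the replicate block (5.26%). In OE-WD relative to CT-WD they were 4, then 8 in DESeq2 (3.73%) and without a filter (2.01%), and 0 in limma with either pseudocount (0.311% and 0.246%), with only the 2 groups compared (0.0269%), with the replicate block (0%) and without both OE-CTD 4 and OE-WD 4 (0.0326%; chosen after seeing the data). With 1 library left out, members called ranged from 2 to 5 in OE-CTD relative to CT-CTD (0.485% to 3.89% of all genes), from 0 to 10 in OE-WD relative to CT-WD (0.026% to 9.47%) and from 6 to 10 averaged over diets (4.45% to 15.7%). With only 2 groups fewer libraries estimate the spread; otherwise the cause was not tested.

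With CT-WD and OE-CTD exchanged, called members were 4 for CT-WD relative to CT-CTD (2.67% of all genes), 4 for OE-WD relative to OE-CTD (0.725%), 9 for diet over genotypes (8.49%), and 0 for OE-CTD relative to CT-CTD (0%), OE-WD relative to CT-WD (0.00647%) and genotype over diets (0.00647%). At an unadjusted p they were 9, 8, 10, 0, 0 and 0, against 15.9%, 16.9%, 23.9%, 7.28%, 4.2% and 5.96% of all genes. This follows from the exchange itself.

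Same-numbered OE libraries on both diets had correlations of 0.071, 0.138, 0.142 and 0.338, and same-numbered libraries of different genotype between -0.23 and 0.046, so these were not taken as pairs. Each OE-WD library correlated best with its own number among OE-CTD, and each OE-CTD library but the first with its own among OE-WD, a hint from the data. In pairwise comparisons the replicate block was fitted by edgeR on the 2 groups alone, and is set here against the same fit without it. In OE-WD relative to OE-CTD the block called 53 of all genes (1 without it), with 0 members. With it, 1 member had an unadjusted p under 0.05, as did 12.1% of all genes (0 members and 5.88% without it). The model of all 14 libraries gave 4.2% of all genes. For CT-WD relative to CT-CTD the block changed no member's call and called 1 of all genes (0 without it).

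Signs turned only for uncalled diet or interaction values. The log2 fold change of Nid2, diet, mean over genotypes (0.0010) was -0.0047 and -0.016 in limma, -0.0013 with the replicate block, and -0.058 without both libraries. Without both, the log2 fold change of Col4a1, diet, mean over genotypes was -0.0081, the log2 fold change of Hspg2, diet by genotype interaction was -0.012 and the log2 fold change of Nid2, OE-WD vs OE-CTD was -0.0067. With 1 library left out, 24 of 40 such values turned, over these ranges. For CT-WD relative to CT-CTD: Hspg2 -0.063 to 0.092, Lama2 -0.10 to 0.10, Lamb1 -0.20 to 0.075, Lamb2 -0.14 to 0.0064, Lamc1 -0.042 to 0.30, Nid2 -0.19 to 0.025. For OE-WD relative to OE-CTD: Col4a1 -0.19 to 0.075, Col4a2 -0.14 to 0.086, Hspg2 -0.057 to 0.16, Lama4 -0.020 to 0.12, Lamb1 -0.18 to 0.050, Lamc1 -0.0029 to 0.17, Nid1 -0.11 to 0.16. Over genotypes: Col4a1 -0.011 to 0.12, Col4a2 -0.014 to 0.0996, Hspg2 -0.021 to 0.087, Lamb1 -0.13 to 0.015, Lamb2 -0.019 to 0.088, Nid2 -0.048 to 0.069. For the interaction: Hspg2 -0.071 to 0.15, Lama4 -0.14 to 0.044, Lamb1 -0.16 to 0.13, Lamc1 -0.21 to 0.13, Nid1 -0.42 to 0.043.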
